A study of Rattus norvegicus with 34 samples.

Results

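Testes of rats fed 2 triazole fungicides at their high doses were compared. The 9 arrays were 5 of propiconazole at 2500 ppm (P2500, replicates 01 to 05) and 4 of triadimefon at 1800 ppm (T1800, replicates 02 to 05), out of 31 arrays with values among 34 that the labels name, and they were chosen by their labels. T1800 replicate 01, which the labels give as outside the submitters' final set, was not analysed here. All were Wistar Han IGS rats exposed through the feed from gestation day 6 to postnatal day 92, the day the testes were taken, and each array held total testis RNA of 1 animal on an Affymetrix rat whole-genome expression chip. By the labels' protocols, liver RNA of the study's rats was hybridised as well. The other groups used below were propiconazole at 500 ppm (P500, 4 arrays), triadimefon at 500 ppm (T500, 4 arrays) and animals on diet without a triazole (Control, 0 ppm, 6 arrays). Litters are not given in the sources used here, so littermates may share a group. The 2500 and 1800 ppm diets differ in compound and in dose, which cannot be told apart in this comparison. The 500 ppm diets match in dose, so 2 pairs of diets were compared.

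Triazole fungicides bind the haem of the fungal sterol demethylase Cyp51 through a nitrogen of their triazole ring and so block ergosterol synthesis. Mammals carry the same enzyme for cholesterol synthesis, and they use related cytochrome P450 enzymes to make steroid hormones in the Leydig cells of the testis and to clear foreign compounds in the liver. Of the pair, triadimefon is a ketone with a chlorophenoxy group, while propiconazole has a dichlorophenyl group on a dioxolane ring. The adult testis is made mostly of germ cells held by Sertoli cells, with Leydig cells, macrophages, vessels and fibroblasts between the tubules, so a level in whole testis RNA cannot separate fewer cells of a type from less RNA per cell.

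The deposited values were scores on a log-like scale whose base is not given, so differences are given in score units after quantile normalization, never as folds. The arrays carried testis RNA by the marker genes of spermatids, whose list mean lay between 3.00 and 3.09 in the P2500 arrays and between 3.09 and 3.10 in the T1800 arrays. The gap between the 3′ and 5′ beta-actin control probe sets, a sign of RNA or target quality, was 0.762, 1.15, 0.825, 0.922 and 1.47 in P2500 replicates 01 to 05, and between 0.806 and 0.928 in the T1800 arrays. P2500 replicate 05 stood apart on the first principal component of the 9 arrays, which held 50.0% of their variance. P2500 replicates 02, 03 and 04 stood apart on the second (28.9%), at 10.6 to 12.1, against -7.26 to -4.30 for the other 6 arrays. The animal numbers in the labels fall into an earlier and a later series. All P2500 animals were of the earlier one, and T1800 replicate 02 was the only T1800 animal that shared it.

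No gene could be called different between the compounds at their high doses. In limma's model of all 31 arrays, 0 of 31042 probe sets (0%) passed an adjusted p of 0.05, with 0.107 as the smallest adjusted p. Before adjustment, 1951 probe sets had a p under 0.05, 940 higher and 1011 lower in P2500. Leaving out replicates 02, 03 and 04 of P2500 also left 0 calls (smallest adjusted p 0.232), while leaving out P2500 replicate 01 gave 246 and leaving out replicate 05 gave 237. Of those, 87 and 90 belonged to the hepatocyte and xenobiotic lists described next, which had 51, 49 and 65 measured genes. The calls were 246 and 237 of all 31042 probe sets. Both fits kept replicates 02, 03 and 04, which were set apart by their liver transcripts, so liver genes among the calls were given in advance. Array weights, which gave P2500 replicate 05 a weight of 0.188 and replicate 04 one of 2.75, called 790 higher and 686 lower. Without a test, 491 probe sets (1.58%) had all 5 P2500 arrays above all 4 T1800 arrays, and 882 (2.84%) had all 5 below.

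Over genes taken at 1 probe set each, the widest differences were in liver genes, and they came from 3 arrays. The lowest difference was -0.512 over those genes and -0.977 over all probe sets. Hepatocytes make most plasma proteins, among them albumin, under a set of nuclear factors that includes HNF1, which binds a short palindromic motif near the start of many liver genes. The start regions of the albumin gene Alb, of the liver fatty acid binding protein gene Fabp1 and of Cyp2c11, a male-specific hepatic cytochrome P450, are shown because these genes were high in the same arrays. They are the 250 bases before the transcription start from RefSeq (GRCr8) in lower case, with any match to GTTAAT, the half-site of the HNF1 motif, on either strand in capitals. No other motif was searched. Alb lies on the minus strand at chr14:17906980-17907229, Fabp1 on the plus strand at chr4:104749090-104749339 and Cyp2c11 on the plus strand at chr1:246174966-246175215.
Alb: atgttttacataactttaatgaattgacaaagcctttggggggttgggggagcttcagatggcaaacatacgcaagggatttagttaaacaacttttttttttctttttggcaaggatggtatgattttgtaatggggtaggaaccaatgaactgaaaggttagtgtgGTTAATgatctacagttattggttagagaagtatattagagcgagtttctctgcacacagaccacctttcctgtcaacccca
Fabp1: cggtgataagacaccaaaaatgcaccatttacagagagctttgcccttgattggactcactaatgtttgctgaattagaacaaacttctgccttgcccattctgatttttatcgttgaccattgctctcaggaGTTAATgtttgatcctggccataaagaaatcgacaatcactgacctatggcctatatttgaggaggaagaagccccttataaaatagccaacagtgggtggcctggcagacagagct
Cyp2c11: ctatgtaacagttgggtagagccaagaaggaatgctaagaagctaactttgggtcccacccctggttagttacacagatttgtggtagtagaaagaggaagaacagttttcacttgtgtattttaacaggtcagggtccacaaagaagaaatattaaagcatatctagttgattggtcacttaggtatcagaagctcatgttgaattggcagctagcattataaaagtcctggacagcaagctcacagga
The match began 82 bases before the start in Alb and 117 before it in Fabp1, and none was found in the Cyp2c11 window. The windows of Serpina1, Ambp and Cyp2e1, also high in the same arrays, held no match, and that of the fibrinogen gene Fga held 1. Of the 42 measured genes for hepatocyte plasma proteins that had a RefSeq start region, 14 (33.3%) held the motif, against 1775 of all 27457 RefSeq start regions (6.46%). The share was 14.6% for hepatocyte enzymes and transporters, 10.9% for xenobiotic genes and 16.7% for genes of the cytosolic ribosome. A match is a run of letters and was not tested as a binding site.

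Alb scored 0.0616, 4.15, 3.89, 3.91 and -0.124 in P2500 replicates 01 to 05, against 0.616, 0.714, 0.253 and 0.00419 in T1800 replicates 02 to 05. Controls lay between 0.132 and 1.65. Replicates 02, 03 and 04 of P2500 were above every T1800 and Control array, while replicates 01 and 05 were among the low ones, and the groups overlapped. The mean difference was 1.98 ± 0.656 (SE, adjusted p = 0.401), and it was -0.428 without those 3 arrays. A second Alb probe set was high in the same 3 arrays, at 3.50 to 3.68.

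Serpina1, the antiprotease alpha-1-antitrypsin, scored 0.0860, 2.00, 1.96, 1.91 and -0.0566 in P2500 replicates 01 to 05, against 0.0964, 0.0870, 0.124 and 0.00422 in the T1800 arrays. Its difference of 1.10 ± 0.283 did not pass (adjusted p = 0.142). Fabp1 scored -0.228, 0.924, 1.14, 1.09 and -0.350 in P2500, against -0.271, -0.200, -0.302 and -0.287 in T1800. The same 3 arrays were high for both, by 1.88 and 1.32 above the T1800 mean.

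Several hepatocyte genes had somewhat higher scores in P2500 replicate 01 too. Hrg, which encodes the plasma protein histidine-rich glycoprotein, scored 0.450, 1.495, 1.47, 1.46 and 0.235 in P2500, against 0.235, 0.217, 0.227 and 0.190 in T1800. Every P2500 array was above every T1800 array, though replicate 05 and T1800 replicate 02 both round to 0.235 (difference 0.805 ± 0.167, adjusted p = 0.109). Ambp, the precursor of alpha-1-microglobulin, scored 0.355, 1.396, 1.41, 1.39 and 0.140 in P2500, against 0.134 to 0.168 in T1800, and its groups overlapped through replicate 05. Obp3, an alpha-2u globulin-type urinary protein that rat liver secretes, scored -0.242, 1.05, 1.11, 1.01 and -0.324 in P2500, against -0.403 to -0.342 in T1800, with no overlap (adjusted p = 0.109), while its second probe set overlapped.

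The list of hepatocyte secreted and plasma proteins had 51 measured genes, of which 0 passed the test and 50 were higher in P2500. Hrg and Fabp1 are not in it. The list's median difference was 0.578, against -0.000753 over all 14217 genes. It was -0.0362 over replicates 01 and 05 and 1.003 over replicates 02, 03 and 04. The list's mean score was -0.0525, 0.946, 0.931, 0.909 and -0.119 in P2500 replicates 01 to 05, against -0.0722 to -0.0202 in T1800 and -0.109 to 0.0982 in the controls. Replicates 02, 03 and 04 were set apart by their liver transcripts, so high hepatocyte genes in them were given in advance. In these arrays, 49 of the 51 genes lay above every T1800 array, beside 1158 of all 14217 genes. In replicates 01 and 05 that held for 1, beside 1284 of all genes, while 11 lay below every T1800 array, beside 1981 of all. The differences of the 3 arrays from the T1800 mean ran from -0.0244 to 3.59 across the list. Azgp1, a secreted lipid-mobilizing glycoprotein, the acute-phase protein haptoglobin (Hp) and coagulation factor F9 followed the same arrays, at 0.833, 1.12 and 0.558 above the T1800 mean in replicates 02 to 04, and at 0.0670, 0.108 and 0.0314 in replicates 01 and 05.

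**Figure D1:**
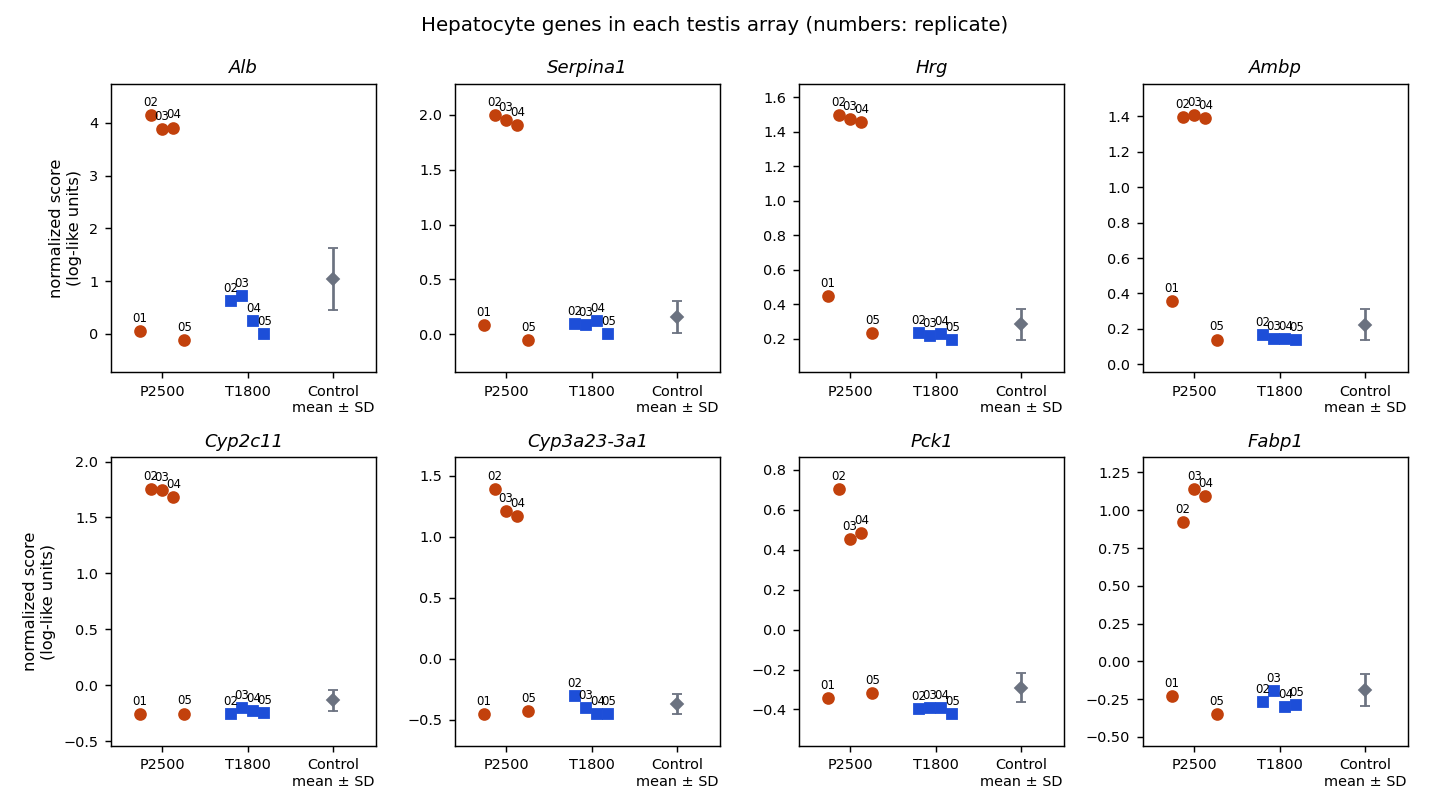
Normalized score (log-like units, vertical axis) of 8 hepatocyte genes in each P2500 array (circles) and T1800 array (squares), numbered by replicate, with the Control mean ± SD over 6 arrays (diamond and bar). P2500 replicates 02, 03 and 04 sit far above all T1800 arrays in each panel, as for Alb at 3.89 to 4.15, and replicates 01 and 05 sit near them.

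Liver enzymes and transporters showed the same split on a smaller scale. Of 49 measured genes, 0 passed the test, 43 were higher in P2500 and the median difference was 0.125, which was -0.0173 for replicates 01 and 05 and 0.212 for replicates 02 to 04. Pck1, which starts gluconeogenesis, scored -0.340, 0.704, 0.454, 0.481 and -0.320 in P2500, against -0.424 to -0.391 in T1800, with no overlap (difference 0.597 ± 0.132, adjusted p = 0.109). Hao1, a peroxisomal glycolate oxidase, also had no overlap, with P2500 arrays at -0.0865, 0.324, 0.233, 0.237 and -0.0670, against -0.152 to -0.0954 in T1800. Gnmt, the methyltransferase that consumes S-adenosylmethionine, Slco1b2, an uptake transporter for organic anions, Cyp8b1, the sterol 12-hydroxylase of bile acid synthesis, and Ttpa, the vitamin E transfer protein, overlapped between the groups, with differences of 0.232, 0.342, 0.135 and 0.258 (adjusted p = 0.109 each). Another gene of the list, Nr1h4, the bile acid receptor FXR, was also above in all P2500 arrays; it is named after its values were seen. These 3 of 49 stand beside 236 of all 14217 genes.

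Other genes, most of them outside the 2 hepatocyte lists, had the same array pattern. Gulo, the last enzyme of vitamin C synthesis in rats, scored -0.153, 0.140, 0.0930, 0.0699 and -0.176 in P2500, against -0.286 to -0.200 in T1800, but its second probe set overlapped. Adam7, a membrane protein best known from the epididymis, scored -0.0545, 0.639, 0.574, 0.555 and -0.122 in P2500, against -0.222 to -0.187 in T1800 (difference 0.526 ± 0.101, adjusted p = 0.109), and it was 1 of 11 measured members of the epididymis list, whose median difference was -0.00406. Cat, which encodes catalase, scored 0.345, 1.24, 1.20, 1.21 and 0.642 in P2500, against 0.320 to 0.483 in T1800 (adjusted p = 0.121). Rbp4, the plasma carrier of retinol and a member of the secreted list, was at 0.997 to 1.10 in replicates 02 to 04, but at -0.398 and -0.350 in replicates 01 and 05, below every T1800 array (-0.292 to -0.190). Fn1, which encodes fibronectin and is made both by hepatocytes and by fibroblasts, was at 0.531 to 0.606 in the 3 arrays and at -0.118 and -0.0312 in replicates 01 and 05, against 0.00813 to 0.0692 in T1800. Rnase12, Akr1c1 and Apon were low throughout and had no overlap, with differences of 0.124, 0.131 and 0.172 (adjusted p = 0.109 each).

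Drug-metabolizing enzymes are the genes through which triazoles are best known in liver, where they induce cytochromes P450 through nuclear receptors. Of 65 measured genes for xenobiotic metabolism and transport, 0 passed, 46 were higher in P2500, 8 had all P2500 arrays above and 2 had all below, beside 236 and 418 of all 14217 genes. Cyp2c11 scored -0.258, 1.75, 1.75, 1.68 and -0.253 in P2500, against -0.259 to -0.200 in T1800. Cyp3a23-3a1, a CYP3A enzyme that responds to the receptor PXR, scored -0.454, 1.39, 1.22, 1.17 and -0.427 in P2500, against -0.452 to -0.306 in T1800. Cyp2e1, the ethanol-metabolizing P450, scored -0.124, 1.02, 0.942, 0.911 and 0.0161 in P2500, against -0.130 to 0.0271 in T1800.

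The differences of these 3 P450 genes were 1.17, 0.983 and 0.596 (adjusted p = 0.131, 0.141 and 0.137) with all arrays, and -0.0209, -0.0376 and -0.0108 without the 3 liver-positive arrays. In those arrays they were high together with albumin and the rest of the hepatocyte list. Ugt2b35, a glucuronosyltransferase, Fmo1, a flavin monooxygenase, and Abcb11, the bile salt export pump, kept all P2500 arrays above all T1800 arrays (differences 0.627, 0.129 and 0.143, adjusted p = 0.109 each). For each of them replicates 01 and 05 were the 2 lowest P2500 arrays. Cyp2d3 had a difference of 0.301 and overlapped.

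Another set of genes separated the compounds without following the liver-positive arrays. Of those described here, Perp, Macroh2a2, Cyp2g1, Prim1, S100b, Zfp157 and Pask were dim, as were Arhgef28, Pet100, Tmem132c, Ptgr1 and Acvr1. Their mean over all arrays lay below that of the bioB spike-in control, while those of Acsl1 and Ky did not. Many genes described further below were dim too, among them Star, Lhcgr, Dcn, Cd74, Rhox5 and Rarb. Of all 31042 probe sets, 4226 were not dim. Perp, a p53-induced membrane protein of desmosomes, had the smallest p of all genes. It scored -0.0106, -0.0588, -0.0377, -0.0404 and -0.0214 in P2500 replicates 01 to 05, against -0.184, -0.149, -0.209 and -0.208 in T1800. All P2500 arrays were above all T1800 arrays and lay within the Control range of -0.107 to 0.0420. The difference was 0.154 ± 0.0265 (SE, adjusted p = 0.107), 0.172 for replicates 01 and 05 and 0.142 for replicates 02 to 04, and its second probe set overlapped (0.0285 ± 0.0362).

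Macroh2a2, a histone variant of silent chromatin, scored 0.608, 0.495, 0.481, 0.480 and 0.595 in P2500, against 0.285, 0.177, 0.312 and 0.437 in T1800. The P2500 arrays were all higher, by 0.229 ± 0.0499 (adjusted p = 0.109), and the T1800 arrays lay below the lowest Control array (0.483). A dimmer second probe set of the gene overlapped. Acsl1, which activates long-chain fatty acids, scored 1.80, 1.80, 1.75, 1.76 and 1.80 in P2500, against 1.63, 1.62, 1.64 and 1.56 in T1800 (0.169 ± 0.0538, adjusted p = 0.342). A second Acsl1 probe set also had no overlap (1.30 to 1.52 in P2500, 0.946 to 1.07 in T1800), and another did.

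Several genes lower in P2500 had P2500 scores near the controls and most T1800 scores above them. Cyp2g1, a P450 known from the olfactory mucosa, scored 0.283, 0.191, 0.203, 0.207 and 0.189 in P2500, against 0.442, 0.301, 0.479 and 0.459 in T1800, with controls from 0.139 to 0.336. The groups did not overlap, T1800 replicate 03 lay inside the Control range, and the difference was -0.205 ± 0.0368 (adjusted p = 0.107). Prim1, the catalytic subunit of DNA primase, scored 0.338, 0.275, 0.186, 0.190 and 0.319 in P2500, against 0.537, 0.561, 0.530 and 0.488 in T1800. All P2500 arrays lay between the controls' 0.118 and 0.343, and all T1800 arrays above them (-0.268 ± 0.0606, adjusted p = 0.109).

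S100b, a calcium-binding protein of Leydig and nerve-sheath cells, scored 0.297, 0.350, 0.295, 0.350 and 0.176 in P2500, against 0.518, 0.368, 0.544 and 0.398 in T1800, with controls from 0.152 to 0.259. The groups did not overlap (-0.163 ± 0.0432, adjusted p = 0.148). S100b was 1 of 2 probe sets that passed in T1800 against Control in the same model (0.252, adjusted p = 0.0332), and the other was Arhgef28 (0.443, adjusted p = 0.0332). Arhgef28 scored 0.679, 0.339, 0.309, 0.299 and 0.549 in P2500, against 0.816, 0.521, 0.950 and 0.718 in T1800, and overlapped through P2500 replicates 01 and 05 (-0.316 ± 0.0765, adjusted p = 0.126). In P2500 against Control, 0 probe sets passed, with smallest adjusted p 0.0730.

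Zfp157, a zinc finger protein, scored 0.309, 0.327, 0.239, 0.260 and 0.317 in P2500, against 0.417, 0.433, 0.448 and 0.421 in T1800, and its second probe set also had no overlap. Pask, a nutrient-sensing kinase, scored 0.760, 0.841, 0.723, 0.792 and 0.699 in P2500, against 0.892, 0.943, 0.914 and 0.858 in T1800, on either side of the Control mean of 0.843. Both differences were -0.139 (adjusted p = 0.109 each). Pet100, an assembly factor of cytochrome oxidase, had P2500 arrays at 0.560 to 0.847 and T1800 arrays at 0.903 to 0.977 (-0.275, adjusted p = 0.112), and its second probe set overlapped. Tmem132c had no overlap either, at -0.101 to 0.0836 in P2500 against 0.0978 to 0.432 in T1800.

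Ky, Ptgr1 and Acvr1 were also among the genes with the smallest p, and each overlapped through 1 array. Ky, a muscle protein, scored 1.18 to 1.58 in P2500 against 1.54 to 1.69 in T1800, and its second probe set did not overlap (1.34 to 1.55 against 1.61 to 1.68). Ptgr1, which inactivates prostaglandins and leukotrienes, scored 0.462 to 0.782 in P2500 against 0.777 to 0.851 in T1800. Acvr1, an activin and BMP receptor, scored -0.160 to -0.131 in P2500, against 0.0767, 0.0486, 0.109 and -0.136 in T1800, so 1 T1800 array lay with P2500.

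These comparisons set 5 animals of the earlier series against 3 of the later one and 1 of the earlier. Against that 1 T1800 animal, with the spread taken from the other groups, the differences were 0.150 for Perp, 0.246 for Macroh2a2, -0.227 for Cyp2g1, -0.276 for Prim1, -0.224 for S100b, -0.126 for Zfp157 and -0.129 for Pask. With the series as a term in the model they were 0.135, 0.252, -0.264, -0.228, -0.191, -0.137 and -0.146, in the same order. Acsl1 weakened more, to 0.105 with the term in place of 0.169, and it was 0.150 against the 1 T1800 animal. Rarb, described below, was 0.0248 with the term in place of 0.0647. Cyp2g1 passed with the series term (adjusted p = 0.0488), and it was the only probe set that did.

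**Figure D2:**
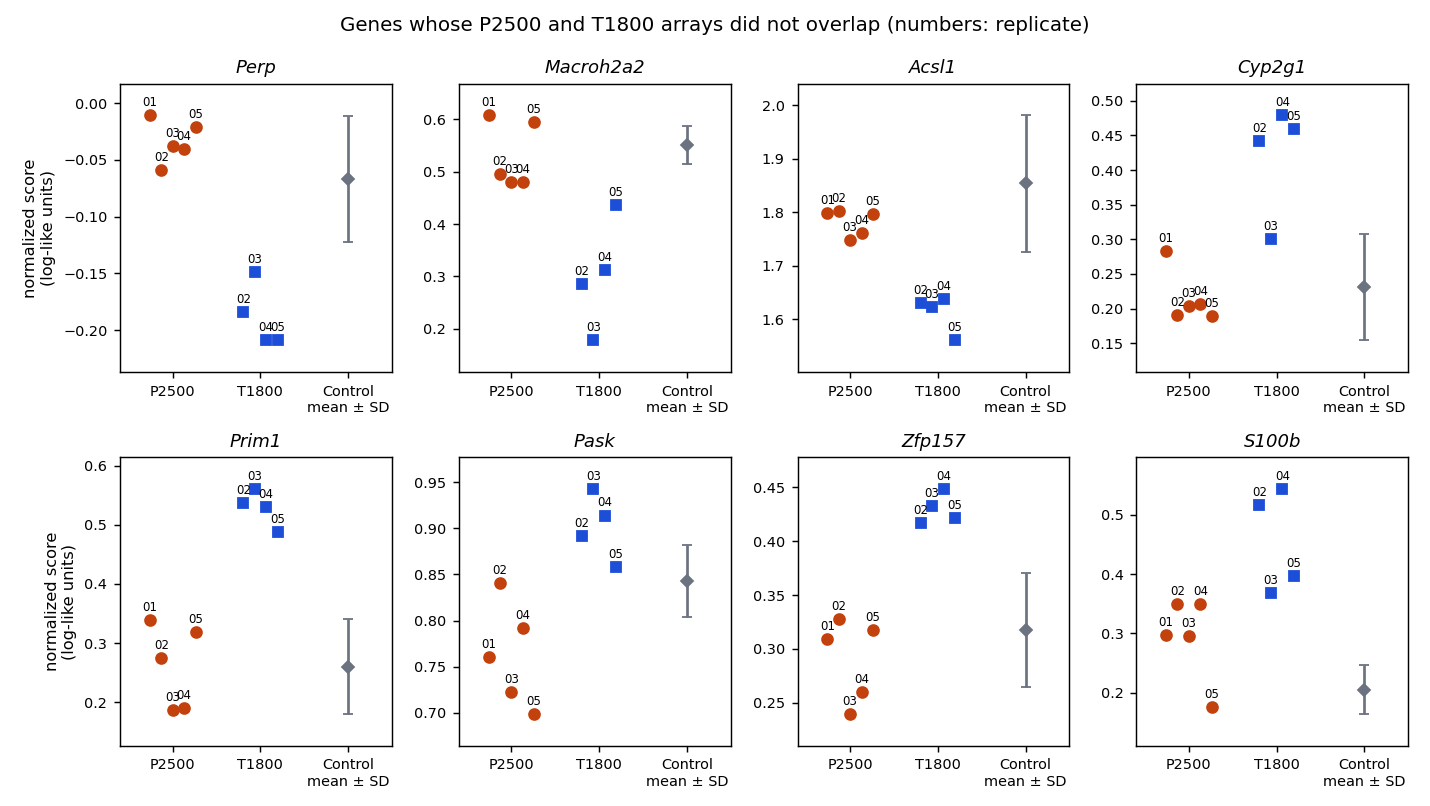
Normalized score (log-like units, vertical axis) of 8 genes in each P2500 array (circles) and T1800 array (squares), numbered by replicate, with the Control mean ± SD over 6 arrays. Perp, Macroh2a2 and Acsl1 have all P2500 arrays above all T1800 arrays, and Cyp2g1, Prim1, Pask, Zfp157 and S100b have all of them below.

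Without the 3 liver-positive arrays, P2500 was left with replicates 01 and 05, and the genes with the smallest p were mostly others. Besides Perp, Macroh2a2 and Pask, they were, on the higher side, Aif1l, an actin-binding protein, Prrg3, Aak1, a kinase of endocytosis, Dnajc10, a disulfide reductase of the endoplasmic reticulum, Mast4 and Rcan2, a calcineurin inhibitor, with differences from T1800 of 0.121 to 0.286. On the lower side they were Ccl6, a chemokine, Dtx4, Cdkn2aipnl, Ubtf, a factor of ribosomal RNA transcription, Zcchc24, Tmem163 and the ubiquitin ligase Smurf1, with differences of -0.183 to -0.132. Adjusted p lay between 0.232 and 0.314 for all 16. Aif1l scored 0.783 and 0.746 in P2500 replicates 01 and 05 and 0.503 to 0.617 in replicates 02 to 04, against 0.553 to 0.624 in T1800, so its difference turned to -0.0289 over the 3 liver-positive arrays. Ccl6 likewise differed by -0.183 in replicates 01 and 05 and by 0.0283 in replicates 02 to 04.

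Genes of steroid hormone synthesis overlapped between the groups, as did 13563 of all 14217 genes. Testosterone is made in Leydig cells, where Star carries cholesterol into mitochondria and Cyp11a1, Cyp17a1 and Hsd17b3 act on it in turn. Of 27 measured genes of steroidogenesis and the Leydig cell, 0 passed the test, 14 were higher in P2500 and 0 had separate groups. The median difference was 0.00367, and the list's mean score was 0.625 to 0.799 in P2500 against 0.669 to 0.763 in T1800.

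Star scored 0.941, 1.19, 1.03, 1.02 and 0.327 in P2500, against 0.735, 0.745, 0.726 and 0.580 in T1800. P2500 replicates 01 to 04 were above all T1800 arrays and replicate 05 was below them (0.204 ± 0.132, adjusted p = 0.829). Its second probe set had a difference of 0.00204. Cyp11a1, which cleaves the cholesterol side chain, scored 1.26, 1.43, 1.35, 1.35 and 1.21 in P2500, against 1.29, 1.12, 1.397 and 0.753 in T1800 (95% interval of the difference -0.0630 to 0.426). Cyp17a1 scored 1.49, 2.33, 2.21, 2.27 and 1.93 in P2500, against 2.00, 2.13, 2.03 and 1.85 in T1800. Its P2500 replicates 02 to 04 were the highest of the 9 arrays and replicate 01 the lowest, so that the difference was 0.0409 with all arrays (interval -0.267 to 0.349) and -0.294 without those 3.

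Insl3, the Leydig cell's insulin-like hormone, scored 1.49, 1.11, 1.399, 1.36 and 0.684 in P2500, against 1.57, 1.48, 1.61 and 1.43 in T1800, with an interval of -0.700 to 0.0743. With the actin gap as a covariate its difference was -0.152 in place of -0.313, while that of Star was 0.274 in place of 0.204. Hsd17b3, which makes testosterone from androstenedione, scored -0.0617 to 0.0645 in P2500 against 0.0185 to 0.146 in T1800 (-0.0770, adjusted p = 0.426). The luteinizing hormone receptor gene Lhcgr scored 0.584 to 0.703 in P2500 against 0.377 to 0.626 in T1800 (0.145, adjusted p = 0.733). Por, the electron donor of microsomal P450 enzymes, scored 0.334 to 0.530 in P2500 against 0.511 to 0.574 in T1800 (-0.0806, adjusted p = 0.829). All 3 overlapped.

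A few members were high in the same arrays as albumin. Hsd3b5, an isoform of liver, scored -0.218, 0.203, 0.235, 0.255 and -0.227 in P2500, against -0.227 to -0.174 in T1800. Cyb5a, the cytochrome b5 that aids Cyp17a1 and is abundant in liver, scored 0.657, 1.09, 1.14, 1.10 and 0.283 in P2500, against 0.543 to 0.676 in T1800. Akr1c14, a 3-alpha-hydroxysteroid dehydrogenase, scored -0.149, 0.233, 0.116, 0.118 and -0.0216 in P2500, against -0.164 to -0.0627 in T1800. Their values in replicates 01 and 05 differed from T1800 by -0.0192, -0.123 and 0.00677.

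The target family of the fungicides lies in cholesterol synthesis. Of 27 measured genes of that pathway and of cholesterol uptake, 0 passed the test, 15 were higher in P2500, all overlapped, and the median difference was 0.0111. A second Cyp51 probe set overlapped too. Cyp51 itself scored 0.908, 1.47, 1.14, 1.24 and 1.71 in P2500, against 1.06, 1.12, 1.08 and 1.08 in T1800. The P2500 arrays spread on both sides of the T1800 arrays, with the lowest and the highest in replicates 01 and 05 (0.204 ± 0.130, adjusted p = 0.829, interval -0.0641 to 0.472). With the actin gap as a covariate the Cyp51 difference was 0.0925. Nsdhl, which acts after Cyp51 in the removal of sterol methyl groups, scored 0.132, 0.268, 0.315, 0.223 and 0.0649 in P2500, against 0.0720 to 0.105 in T1800, and was highest in the liver-positive arrays.

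**Figure D3:**
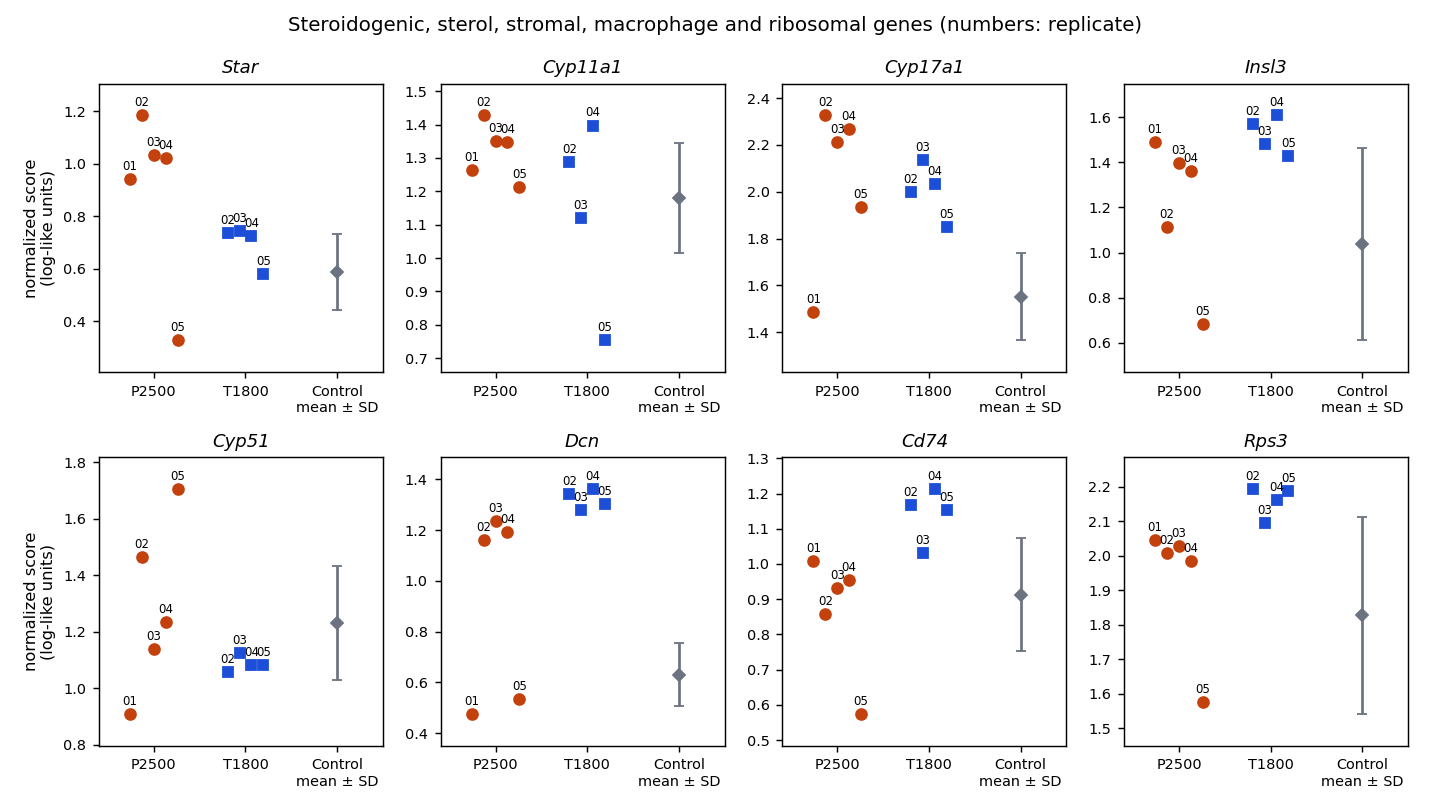
Normalized score (log-like units, vertical axis) of steroidogenic (Star, Cyp11a1, Cyp17a1, Insl3), sterol (Cyp51), stromal (Dcn), antigen-presenting (Cd74) and ribosomal (Rps3) genes in each P2500 array (circles) and T1800 array (squares), with the Control mean ± SD over 6 arrays. P2500 replicate 05 is the lowest array for Star at 0.327 and Insl3 at 0.684, and T1800 replicate 05 is the lowest for Cyp11a1 at 0.753.

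Genes of stroma, macrophages and the ribosome had median differences below 0, and none passed the test. Dcn, the matrix proteoglycan decorin, scored 0.474, 1.16, 1.24, 1.19 and 0.535 in P2500, against 1.34, 1.28, 1.36 and 1.30 in T1800 and 0.504 to 0.787 in the controls. All P2500 arrays were below all T1800 arrays. Replicates 01 and 05 were close to the controls and the liver-positive arrays close to T1800 (differences -0.816 and -0.124, and -0.401 ± 0.168 for all, adjusted p = 0.714). Of 39 measured genes of fibroblasts and matrix, 0 passed the test, 12 were higher in P2500 (7013 of all 14217 genes were), 3 had all P2500 arrays below (418 of all genes did) and the median difference was -0.0319. Fmod, fibromodulin, scored 0.619, 0.692, 0.625, 0.650 and 0.484 in P2500, against 0.704, 0.842, 0.733 and 0.739 in T1800, also with no overlap (adjusted p = 0.177). Ogn, osteoglycin, and Col6a2, a collagen chain, had differences of -0.234 and -0.105 and overlapped. Fn1, described above, is in the matrix list too and was higher in P2500, with overlap (0.271, adjusted p = 0.538).

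Cd74, the invariant chain of antigen presentation, scored 1.01, 0.857, 0.932, 0.954 and 0.574 in P2500, against 1.17, 1.03, 1.21 and 1.15 in T1800. No array overlapped, and the difference was -0.277 ± 0.0758 (adjusted p = 0.177). Tyrobp and Fcer1g, signalling adaptors of macrophages, were also separate (-0.0658 and -0.123, adjusted p = 0.416 and 0.744), and the class II gene RT1-Da overlapped (-0.161). Cd14, also of the macrophage list, went the other way (0.0973) and overlapped. Differences across the list ran from -0.2765 to 0.438. Of 31 measured macrophage genes, 0 passed, 10 were higher in P2500 and 3 were below in all arrays, beside 7013 and 418 of all 14217 genes, with a median of -0.0227.

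Of 27 measured genes of the cytosolic ribosome, 0 passed the test and 2 were higher in P2500. Their median difference was -0.162, the lowest of the 24 lists, and 6 had all P2500 arrays below all T1800 arrays, beside 418 of all 14217 genes. The median was -0.262 for replicates 01 and 05 and -0.101 for replicates 02 to 04. Rps3 scored 2.04, 2.01, 2.03, 1.99 and 1.57 in P2500, against 2.19, 2.10, 2.16 and 2.19 in T1800, and Rpl7 scored 2.86, 2.89, 2.90, 2.86 and 2.71, against 3.01, 2.95, 2.95 and 3.00. Rplp0 and Rpl18 overlapped, with differences of -0.135 and -0.205. The list's mean was 2.35, 2.18, 2.30, 2.29 and 1.93 in P2500 replicates 01 to 05, against 2.35 to 2.39 in T1800. Replicate 05, the lowest, was the array with the widest actin gap (1.47), and the list's median was -0.0698 without it. With the gap as a covariate the list's median was -0.0634 and the Rps3 difference was -0.128 in place of -0.231.

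The lists for cells of the tubule gave medians on both sides of 0, and the spermatid median was close to that of the macrophage genes (-0.0227). Of the 40 spermatid genes, 16 were higher in P2500, beside 7013 of all 14217 genes. The median differences were 0.00827 for 14 spermatogonial genes, 0.00507 for 18 spermatocyte genes, -0.0229 for 40 spermatid genes and -0.00616 for 25 Sertoli cell genes. Sycp3, a component of the synaptonemal complex, scored 2.75 to 3.25 in P2500 against 2.67 to 2.89 in T1800, the sperm hyaluronidase gene Spam1 scored 1.98 to 2.68 against 1.99 to 2.18, and Prm2, a protamine, scored 3.54 to 3.76 against 3.69 to 3.73. All 3 overlapped (adjusted p = 0.829, 0.799 and 0.829). The androgen-dependent Sertoli cell homeobox gene Rhox5 had all P2500 arrays below, at 0.0726, 0.0197, 0.0770, 0.0626 and 0.130, against 0.223, 0.164, 0.151 and 0.187 in T1800 (-0.109 ± 0.0360, adjusted p = 0.401), and so had Cd9, a tetraspanin of spermatogonia (-0.0786, adjusted p = 0.706). Each was the only separate gene of its list, beside 418 of all 14217 genes below. Of the Sertoli cell genes 12 of 25, and of the spermatogonial genes 8 of 14, were higher in P2500, such as Dhh and Id4 (0.0703 and 0.164, both overlapping).

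Smaller lists held single genes with separate groups and 0 calls, beside 236 of all 14217 genes above and 418 below. Retinoic acid genes had a median of 0.00351 over 24 genes, with Cyp26b1, which degrades retinoic acid, at 1.23, 1.45, 1.31, 1.30 and 1.83 in P2500 against 1.15 to 1.19 in T1800, and the receptor gene Rarb at -0.336 to -0.285 against -0.414 to -0.336. Both had all P2500 arrays above (adjusted p = 0.786 and 0.634), though a second Cyp26b1 probe set overlapped. Fatty acid oxidation had a median of 0.00975 over 35 genes, and Acadl, a mitochondrial acyl-CoA dehydrogenase, lay at 0.789 to 1.08 in P2500 against 1.09 to 1.35 in T1800 (adjusted p = 0.341), the opposite side from Acsl1. Of 23 genes of endoplasmic reticulum stress, the chaperone calnexin (Canx) was above and the transcription factor Ddit3 below in all P2500 arrays, while 2 further Canx probe sets overlapped. With the actin gap as a covariate the difference was 0.104 in place of 0.194 for Canx and 0.156 in place of 0.2635 for Cyp26b1. Among 23 heat shock and immediate early genes Klf4 was above and Ier3 below, the second named after its values were seen. Tie1 and Cldn5 of 16 endothelial genes and Alas2 of 8 erythrocyte genes were below, and Tagln of 16 smooth muscle genes overlapped at -0.120. The endothelial genes Plvap, Erg and Kdr were higher and overlapped (0.06145, 0.0522 and 0.0822). In total 9 of the 16 endothelial and 3 of the 8 erythrocyte genes were higher in P2500. The medians of the remaining lists were -0.0120 for p53 response and apoptosis (21 genes), 0.0199 for the antioxidant response (28), 0.0320 for endoplasmic reticulum stress, 0.0312 for heat shock, -0.0394 for the proteasome (25), 0.0169 for adipocytes (16), -0.0197 for peritubular cells and smooth muscle, 0.00697 for endothelium and -0.0406 for erythrocytes.

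**Figure D4:**
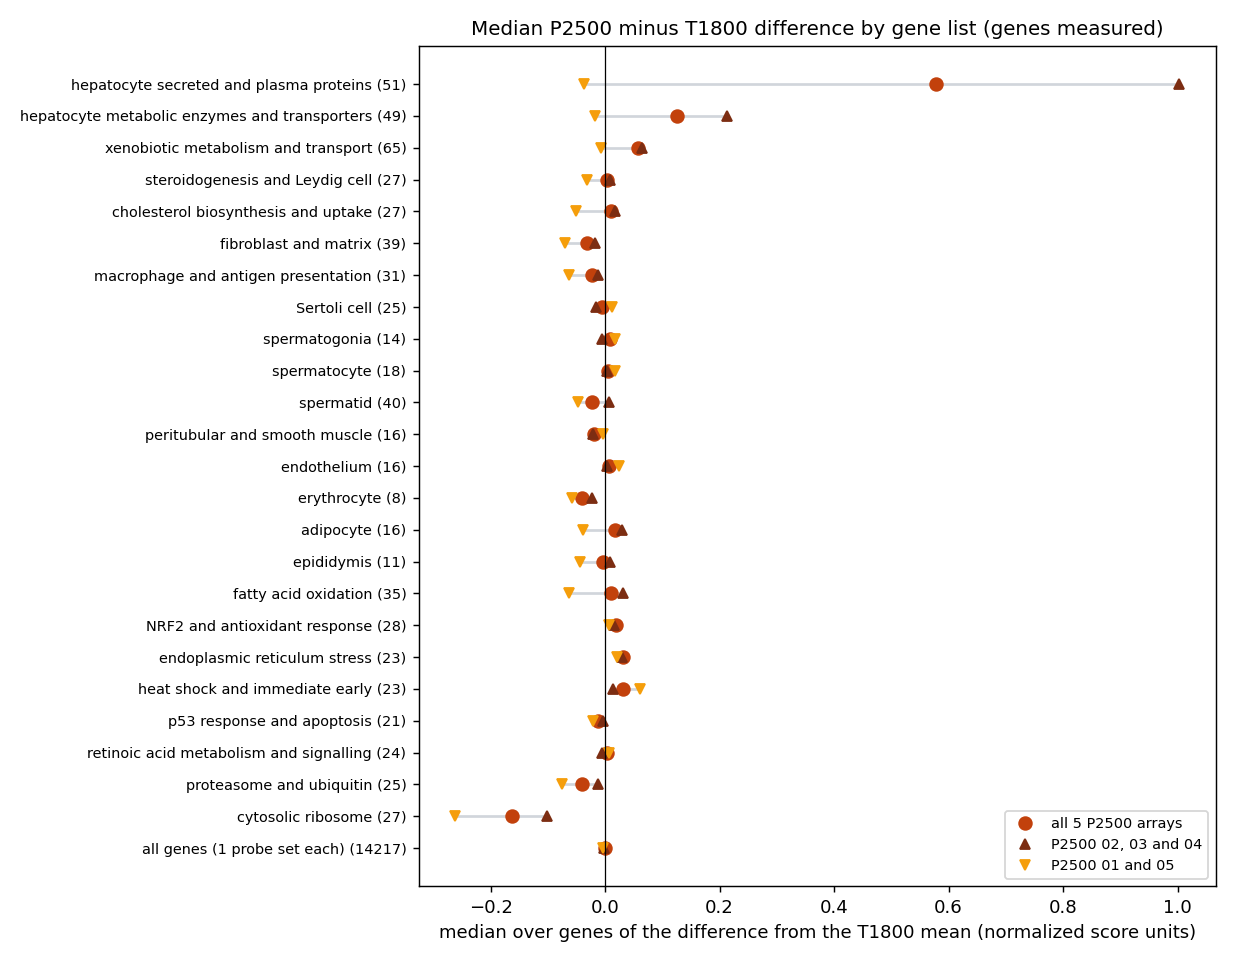
Median over the measured genes of each list (rows, with the number of genes) of the difference from the T1800 mean, in normalized score units, for all 5 P2500 arrays (circles), replicates 02, 03 and 04 (upward triangles) and replicates 01 and 05 (downward triangles). The secreted and metabolic hepatocyte lists lie at 1.003 and 0.212 in replicates 02, 03 and 04 and near 0 in replicates 01 and 05, and the ribosome list is below 0 in both subsets.

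At 500 ppm of each compound, the doses matched and no array was shared with the high-dose comparison. No probe set passed in P500 against T500 (0 of 31042, 0%, smallest adjusted p = 0.375), and 1576 had an unadjusted p under 0.05. Liver genes stayed low. Alb averaged 0.112 ± 0.157 in P500 and 0.566 ± 0.731 in T500 (SD, n = 4 each), and the hepatocyte secreted list had a median difference of -0.0418. The difference between the 2 dose pairs was tested for each probe set as an interaction in limma's model, and 0 passed (0.0679 was the lowest adjusted p, and 1035 had p under 0.05 before adjustment).

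Of the genes described above, some had the same sign at both dose pairs. Dcn averaged 0.550 ± 0.132 in P500 and 1.19 ± 0.222 in T500, a difference of -0.638 (95% interval -1.003 to -0.274). Prim1 averaged 0.274 ± 0.0678 in P500 and 0.473 ± 0.158 in T500 (-0.199, interval -0.331 to -0.0682). Cd74 and Rps3 differed by -0.193 and -0.297, and the ribosome list had a median of -0.240. None of these passed the adjusted threshold (adjusted p = 0.728 for Dcn, 0.876 for Prim1 and 0.888 for Cd74 and Rps3).

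Cyp2g1, Arhgef28 and Pask had opposite signs at the 2 dose pairs. Cyp2g1 averaged 0.383 ± 0.00373 in P500 and 0.281 ± 0.0513 in T500, a difference of 0.102 at 500 ppm, beside -0.205 at the high doses. The interaction of -0.307 ± 0.0535 had the smallest adjusted p (0.0679). Arhgef28 averaged 0.480 ± 0.0982 in P500 and 0.239 ± 0.0610 in T500 (interaction -0.557 ± 0.111, adjusted p = 0.239). Pask differed by 0.0708 at 500 ppm (interaction -0.210, adjusted p = 0.339). Perp and Macroh2a2 were positive at both, with differences of 0.0360 (interval -0.0214 to 0.0934) and 0.00360 (interval -0.105 to 0.112) at 500 ppm, whose intervals include 0.

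Steroidogenic genes and Cyp51 did not pass at the matched dose either. Cyp17a1 averaged 1.65 ± 0.251 in P500 and 2.00 ± 0.118 in T500 (-0.352, interval -0.676 to -0.0270, adjusted p = 0.888). The intervals were -0.464 to 0.0520 for Cyp11a1, -0.177 to 0.395 for Star, -0.791 to 0.0251 for Insl3 and -0.0141 to 0.550 for Cyp51, and a p that misses the threshold does not show that the compounds act alike.

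Across all probe sets, 375 of the 491 that were above in all P2500 arrays (76.4%) were also higher in P500 than in T500, where 51.7% of all probe sets were. Of the 882 below, 688 (78.0%) were lower at 500 ppm, beside 48.3% of all. The actin gap ran the same way at both dose pairs, with means of 1.02 in P2500 and 0.852 in T1800, and of 1.14 in P500 and 0.790 in T500. With the gap as a covariate at 500 ppm, the shares were 42.0% and 41.5%, beside 51.1% and 48.9% of all probe sets. The probe sets themselves were picked from high-dose values without that covariate. The gap was 0.850 to 1.325 in P500 and 0.704 to 0.875 in T500, so gap and compound are largely confounded there. Whether the gap accounts for the shared direction was not tested.

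**Figure D5:**
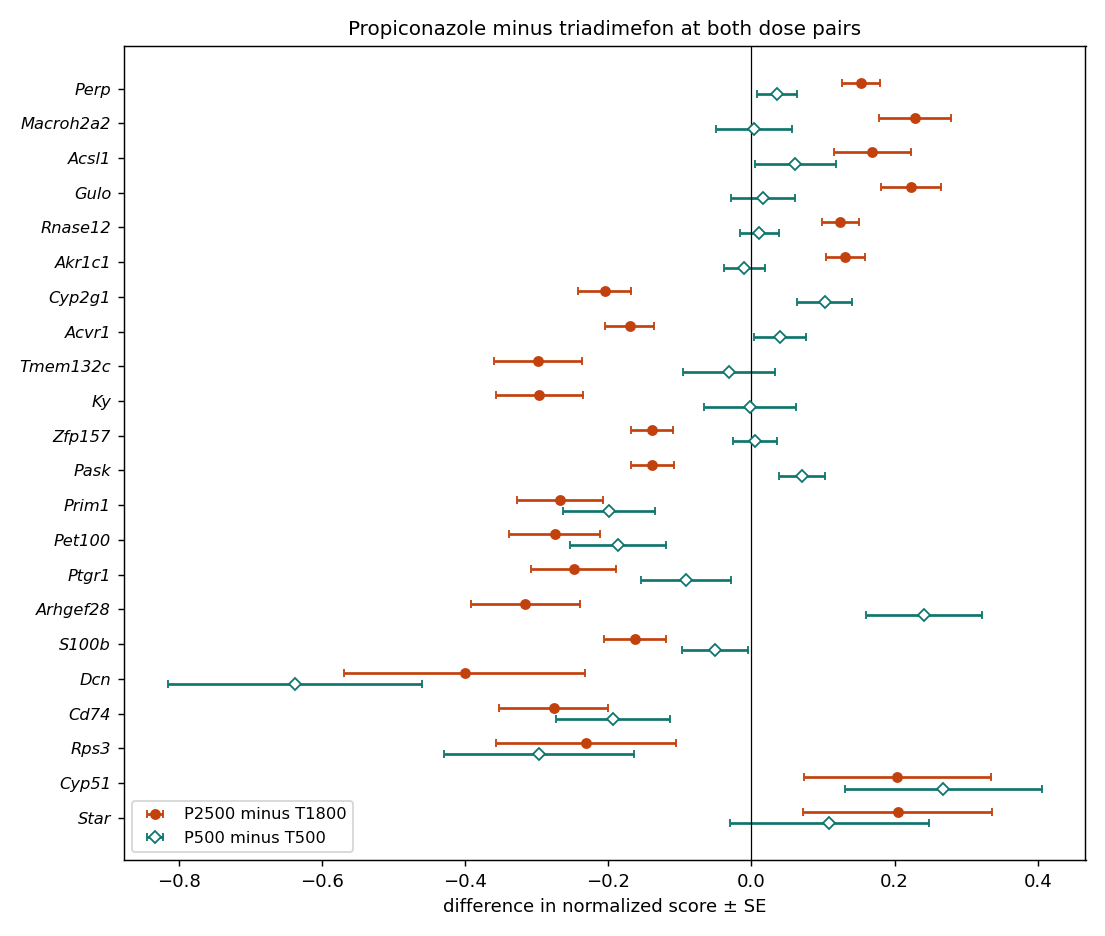
Difference in normalized score ± SE for 22 genes in P2500 minus T1800 (filled circles, upper of each pair) and P500 minus T500 (open diamonds). Dcn, Prim1, Cd74 and Rps3 are below 0 at both dose pairs, Cyp2g1, Pask and Arhgef28 change sign, and Perp and Macroh2a2 are near 0 at 500 ppm.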

How the data were processed

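Testis RNA was hybridised to 1-colour arrays, and the authors deposited 1 table of log-like scores per probe set, centred near 0 on each array, per the values. How the scores were made and their log base are not given in the sources used here, so log2 intensities, which the planned design assumed, were not to hand. Of 31099 probe sets, 57 controls were left out. The deposited scores were quantile normalized and fitted with limma (version 3.58.1, R 4.3.3) as 1 model of 7 group means over 31 arrays, with Benjamini-Hochberg adjustment over 31042 probe sets and a threshold of 0.05. The 3 empty columns were not analysed here. Precision is set by the number of arrays, and the standard error of the difference had a median of 0.0362. The platform annotation gave 1 symbol for 20826 probe sets, several for 436 and none for 9780. Each gene in a list was taken at 1 probe set. Genes to name were picked by p: the 10 lowest on either side, plus the 8 lowest on either side without P2500 replicates 02 to 04. The 5 of lowest p in each of the 24 lists were added, as were fixed steroid, sterol and liver genes. Of the list members picked this way only a part is described. Amh, Kit, Ebp and Hbb are among those left out. The comparison, the lists and the genes were chosen with earlier results of these data known. Statistics were tested on simulated data. Alternatives were other scalings, a filter on dim probe sets, array weights, covariates, blocks and left-out arrays. Same-numbered arrays had correlations of -0.213 to 0.0869, so numbers were not taken as pairs.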

Additional observations from a re-analysis of the deposited data

Results flagged for a closer look

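Single arrays stood far from the rest of their group in 16 of 244 sets of values looked at, where chance flags about 1 in 20. Most were P2500 replicate 05, the array with an actin gap of 1.47; whether the gap accounts for them was not tested. This array was lowest for Acadl (0.789, others from 1.01 to 1.08), Alas2 (0.527), RT1-Da (0.378) and Star (0.327, others from 0.941 to 1.19). It was also lowest for the ribosomal genes Rpl7 (2.71), Rplp0 (2.53) and Rps3 (1.575), and for the mean of the spermatid list (3.00) and of the epididymis list (0.350). It was highest for Dnajc10 (1.60, others from 1.23 to 1.31). P2500 replicate 01 was highest for Cyp2g1 (0.283, others from 0.189 to 0.207).

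Among the T1800 arrays, replicate 05 was lowest for Star (0.580, others from 0.726 to 0.745) and highest for Cd9 (0.2425). Replicate 03 was highest for Cyp26b1 (1.19) and lowest for Ttpa (-0.521), and replicate 02 was lowest for Akr1c14 (-0.164).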

How the results depend on the processing

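The count of 0 called probe sets held with the deposited scores, without dim probe sets (4226 kept), without P2500 replicates 02 to 04, with the hepatocyte list mean as a covariate and with a replicate block (0 called, 0 list members; the block changed no call of a named gene). It was 339 over P2500 replicates 02, 03 and 04 only, which were singled out by their liver transcripts. With array weights it was 1476, and without arrays of an actin gap above 1.4 it was 349. It was 1 each over only the 9 arrays (LOC100911253) and with the animal series as a block (Cyp2g1). With the actin gap as a covariate it was also 1, the second Ky probe set (-0.265). Leaving out 1 array gave 0 to 246 calls, 237 without P2500 replicate 05, 4 without T1800 replicate 03 and 1 without T1800 replicate 05. Called list members numbered 115 over replicates 02 to 04 only, 156 with array weights and 104 without arrays of an actin gap above 1.4. They stand beside 339, 1476 and 349 of all 31042 probe sets, and 100, 114 and 93 of them were in the hepatocyte and xenobiotic lists. The number was 1 for the series block and 0 to 97 when 1 array was left out. At 500 ppm, array weights called 53. The median of the hepatocyte secreted list was -0.0362 without replicates 02 to 04 and 1.003 with them only, that of the matrix list -0.120 without dim probe sets, and that of the ribosome -0.295 with the hepatocyte covariate. Without replicates 02 to 04 the difference turned negative for Alb (-0.428), Cyb5a (-0.123), Cyp17a1 (-0.294), Cyp2c11 (-0.0209), Cyp2e1 (-0.0108), Cyp3a23-3a1 (-0.0376), Fabp1 (-0.0241), Fn1 (-0.110), Hsd3b5 (-0.0192), Rbp4 (-0.133), Serpina1 (-0.06315) and Star (-0.0626). With the hepatocyte covariate it did for Cyb5a (-0.113), Cyp17a1 (-0.270), Fn1 (-0.0609) and Star (-0.09765). Cyp17a1 was also -0.0335 as deposited, -0.0304 with the series block and -0.0294 to 0.180 when 1 array was left out. Aif1l was -0.0289 and Ccl6 0.0283 over replicates 02 to 04 only, and Ccl6 0.0144 with array weights. As deposited, 494 probe sets were above and 377 below without overlap, against 491 and 882 normalized. The cause of these shifts was not tested. Scores of unknown gain and the number of arrays limit small differences.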
